A study of Mus musculus with 6 samples.

Results

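Histones are the proteins around which DNA is wound, and 85 of the 55378 genes in the count table carry a mouse histone name. They were chosen by symbol alone, from the names that begin with Hist1h to Hist4h or with the variant stems H1f, H2af, H2bf and H3f and their newer forms. Of these 85 genes, 73 have annotated exons that merge into 1 continuous block, so that their transcripts contain no splice junction. The other 12 have several annotated blocks, which does not show that spliced RNA was counted for each. The name rule took in 80 protein-coding genes, 4 pseudogenes (Hist1h2aj, Hist1h2al, H2afy3 and H3f3c) and H3f3aos, which is an RNA antisense to H3f3a and encodes no histone. On chromosome 13 lie 57 of them, on chromosome 3 lie 11, on chromosome 11 lie 4 and on chromosome X lie 4.

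RNA came from mouse embryos that had been injected as zygotes with a negative control siRNA (NC) or with an siRNA against Eif4a3, and that were collected as blastocysts on day 5. Each group has 3 libraries, each made by Smart-seq2 from polyA RNA of 5 pooled embryos. The labels give no strain, and nothing in them says whether the pools had separate parents, so each p-value measures the spread between these pools alone. In pools of whole embryos, fewer cells of a type and less RNA per cell cannot be told apart.

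Histone genes fall into 2 classes. Replication-dependent genes lie in clusters, have no introns and are transcribed in S phase, and their mRNA ends just after a stem-loop that is bound by the protein Slbp instead of ending in a poly(A) tail. Replication-independent variants such as H2A.Z and H3.3 are expressed through the cell cycle, usually from genes with introns, and their mRNA is spliced and polyadenylated. Eif4a3 is an RNA helicase that anchors the exon junction complex to mRNA, just upstream of splice junctions. A transcript without junctions is not expected to carry the complex, which is why the intronless and the spliced histone genes were set side by side.

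The letters that mark the stem-loop were searched in the annotated transcripts of GENCODE M21. The hexamers and shared windows below come from the same transcripts, while the counts were made with another release. The pattern searched has 16 bases and fixes a leading GG, a CTTTT after 2 free bases, an AG after 1 more free base and a closing CC after another 2. It was found on the sense strand of the annotated transcripts of 46 of the 85 genes, of which 44 have 1 block and 2 have several (Hist1h2be and Hist1h2bp). Block number and letters do not divide the genes alike, since H2afj, H1f0, Hist1h1b and Hist1h2ak have 1 block and no such letters in their annotated transcripts. An annotated transcript that stops before a stem-loop would lack the letters too. That of Hist1h2ak is short, with 294 windows of 100 bases against 1956 for H1f0. Missing letters therefore do not show that a gene has no stem-loop. Over all 55450 genes with a transcript sequence the pattern was found in 89 (0.161%). The form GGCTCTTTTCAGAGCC was shared by 27 of the genes, among them members of the H1, H2A, H2B and H3 families. The H4 genes with the pattern carried other letters, 7 of them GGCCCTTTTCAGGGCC and 2 of them (Hist1h4b and Hist1h4j) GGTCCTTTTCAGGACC. The lines below show 1 gene of each family, to compare their letters, and H2afx, a variant gene outside the clusters that has the pattern too. Capitals mark the pattern, and positions are on GRCm38, plus strand.
Hist1h1c (chr13:23739507-23739532): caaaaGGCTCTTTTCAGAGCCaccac
Hist1h2ao (chr13:21810893-21810918): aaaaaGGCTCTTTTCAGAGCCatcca
Hist1h2bg (chr13:23571838-23571863): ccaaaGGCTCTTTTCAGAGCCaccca
Hist1h3d (chr13:23576239-23576264): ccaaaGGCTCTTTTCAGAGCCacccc
Hist1h4d (chr13:23581945-23581970): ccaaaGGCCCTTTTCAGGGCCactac
H2afx (chr9:44335235-44335260): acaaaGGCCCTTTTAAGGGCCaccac

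A polyadenylation hexamer, AATAAA or ATTAAA, stood in the last 50 bases of an annotated transcript of 27 of the 85 genes, against 43.9% of all genes. Because polyA RNA was sequenced, these ends bear on which histone transcripts the libraries could hold. H2afx has both ends, with the stem-loop 822 bases before the end of the transcript and the hexamer 29 bases before it. H2afj, H2afz and H3f3b have the hexamer without the stem-loop letters. In the lines below, capitals mark the hexamer, positions are on GRCm38, and H3f3b is read from the minus strand.
H2afx (chr9:44336038-44336053): attttATTAAAggatc
H2afj (chr6:136810046-136810061): ggacaAATAAAgaata
H2afz (chr3:137866892-137866907): tactaATTAAAcagtg
H3f3b (chr11:116021994-116022009): ttacaAATAAActagt

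Levels are given in CPM (counts divided by the TMM-adjusted size of the library, on the usual scale), in the order of replicates 1, 2 and 3, and the count summed over genes was between 15607227 and 18697754 per library. Eif4a3 itself fell from 253 ± 49.97 to 36.1 ± 20.1 CPM (SD, n = 3 libraries; log2 fold change −2.81, adjusted p 0.00512). Trophectoderm and inner cell mass markers were present in every library. Their summed levels were 2156 to 5662 and 298 to 349 CPM in NC, against 507 to 2180 and 170 to 229 CPM in the knockdown. Of the 6 cumulus cell markers, 5 were at 0 in every library, and Amhr2, the remaining one, had 3.58 to 15.4 CPM in NC and 16.1 to 28.8 CPM in the knockdown without passing the test (adjusted p 0.152). Blood markers summed to 7.22 to 48.5 CPM in NC and 3.66 to 6.26 CPM in the knockdown, and 2 of the 4 tested fell (Hbb-bs and Hbb-bt). The part of these shifts in the histone values below was not tested.

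Of the 85 genes, 50 had enough counts to be tested, and 1 passed the threshold of an adjusted p under 0.05 in edgeR's quasi-likelihood test with Benjamini-Hochberg adjustment. It was Hist1h2aa, which was higher in the knockdown. This gene had 1, 2 and 1 counts in NC, entered the test only through the group where it is high, and did not pass when no filter on low counts was used (adjusted p 0.0984). No histone gene passed the threshold in the lower direction. Among all 15619 genes tested, 13.1% were called, and higher and lower calls made up 7.52% and 5.56% of the genes tested. The groups did not overlap for 4 of the 50 histone genes, against 36.4% of all genes (20.1% higher, 16.4% lower). These 4 were Hist1h2aa, H2afj and Hist2h3c2 on the higher side and H2afx on the lower. Like Hist1h2aa, Hist2h3c2 entered the test through the group where it is high. At an unadjusted p under 0.05 there were 5 histone genes, these 4 and H2afy, against 30.1% of all genes. DESeq2 called 3 of the 50, H2afj and Hist2h3c2 higher and H2afx lower, against 21.3% of all genes.

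The intronless genes held all 4 whose groups were apart. Of 41 tested 1-block genes, 1 was called, against 9.97% of all 1716 tested genes with 1 block (7.81% higher, 2.16% lower), and 4 had groups apart, against 30.9%. Of 9 tested multi-block genes, 0 were called by edgeR, against 13.5% of all 13903 tested genes with several blocks (7.48% higher, 5.98% lower). None of these 9 had groups apart (37.1% of the same background), 1 had an unadjusted p under 0.05 (H2afy, against 31.2%), and 0 were called by DESeq2 (against 22.2%). The median log2 fold change was 0.15 over the 1-block histone genes, with 22 above 0 and 19 below, and −0.47 over the multi-block ones, with 2 above and 7 below. The corresponding medians were 0.07 over all 1-block genes and 0.03 over all multi-block genes. The 9 multi-block histone genes include 3 H2B genes with Hist names (median −0.48) and 6 variant genes (median −0.41). The intervals of single genes were wide, and the 1-block median turned to −0.60 when only the 10 genes with at least 5 CPM in 3 libraries were kept.

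**Figure D1:**
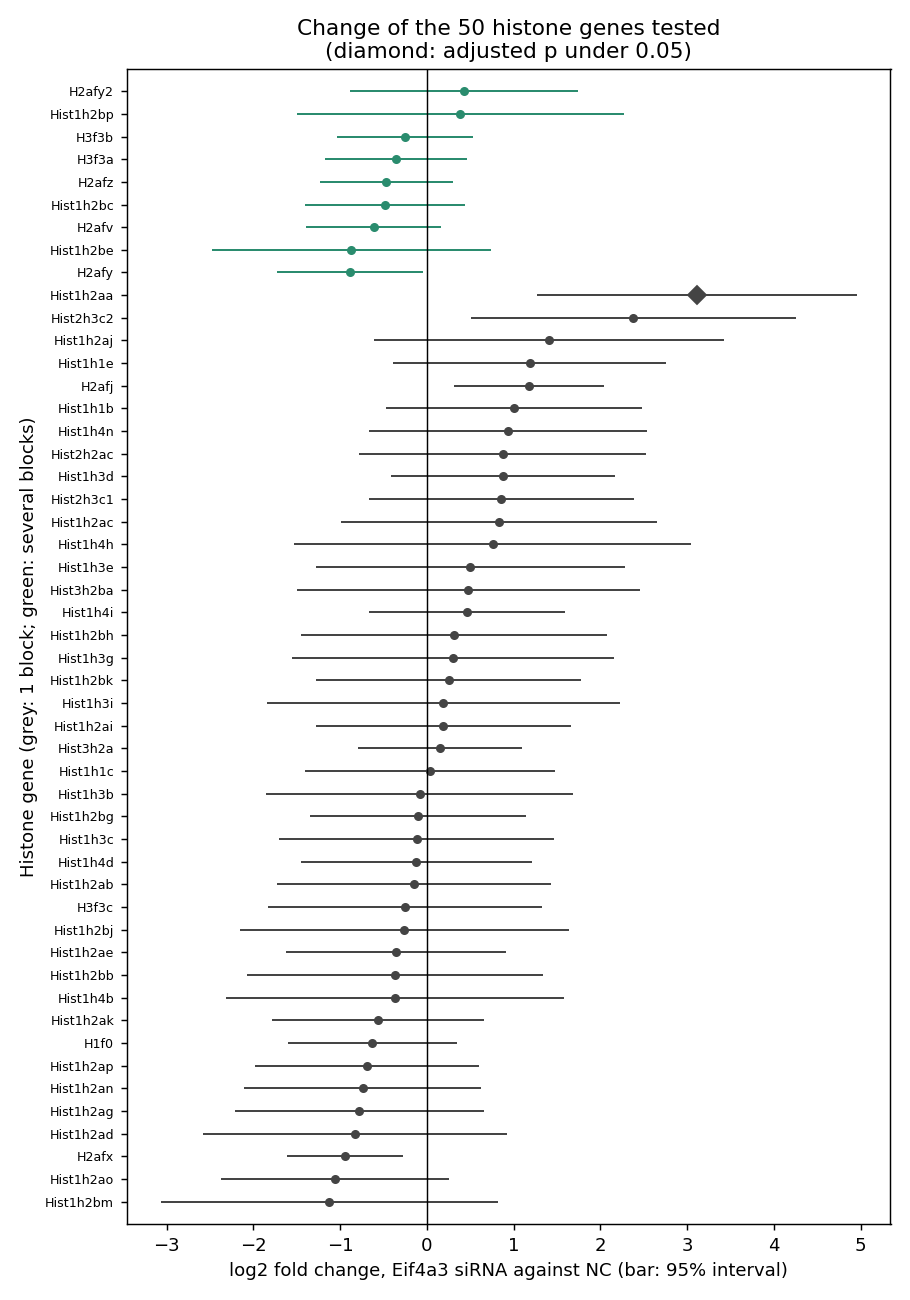
Log2 fold change of the Eif4a3 siRNA group against NC for each of the 50 tested histone genes, with bars for the 95% interval, green for genes with several blocks and grey for genes with 1 block. Hist1h2aa is marked as the only gene past the threshold, and the intervals of most genes cross 0.

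Per kilobase of exon, the highest histone levels in NC were those of the spliced variants H2afz, at 804.9 CPM, and H3f3b, at 419.9. Summed blocks count a pair across a junction more than once, and with only the most counted block over the same exon length these were 384.1 and 286.5. H2afv and H3f3a came to 130.4 and 124.3 as sums and to 39.7 and 49.2 by that block, so their place above or below the intronless H2afx, at 98.2, depends on the counting. H2afz, which encodes H2A.Z, a variant placed around transcription start sites, was measured at 1150, 1309 and 1829 CPM in NC and at 680.4, 1253 and 1168 CPM in the knockdown. The groups overlapped (log2 fold change −0.47, standard error 0.34, 95% interval −1.23 to 0.29, adjusted p 0.391). H3f3b, 1 of 2 genes for the variant H3.3, which is deposited outside replication, stood at 818.8, 1437 and 1493 CPM in NC and 784.7, 990.2 and 1368 CPM in the knockdown. Its difference was −0.25 (95% interval −1.03 to 0.52, adjusted p 0.665), again with overlapping groups. The other H3.3 gene, H3f3a, had 402.4, 403.2 and 501.4 CPM in NC and 190.8, 319.6 and 511.9 CPM in the knockdown, so that the lowest and the highest of the 6 values were both from knockdown libraries (−0.35, 95% interval −1.16 to 0.45, adjusted p 0.554).

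H2afv, the second gene for an H2A.Z protein, was measured at 170.8, 236.7 and 231.4 CPM in NC and 86.17, 128.3 and 203.2 CPM in the knockdown. Knockdown replicate 3 lay between the NC libraries (−0.61, 95% interval −1.38 to 0.15, adjusted p 0.262). H2afy encodes macroH2A1, a large variant that is enriched on the inactive X chromosome. It spread widely in NC, with 249.6, 170 and 83.01 CPM, and little in the knockdown, with 89.13, 94.97 and 87.09 CPM. Its difference was −0.89 (95% interval −1.72 to −0.06, adjusted p 0.141), and NC replicate 3 lay below all 3 knockdown libraries. Of the 6 variant genes with several blocks, H2afy2 alone had a log2 fold change above 0 (0.43, adjusted p 0.668), at a mean of 2.44 CPM. H2afz, H3f3b, H3f3a and H2afv together made up 84.7 ± 3.64% of the summed histone level in NC and 84.4 ± 1.03% in the knockdown.

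**Figure D2:**
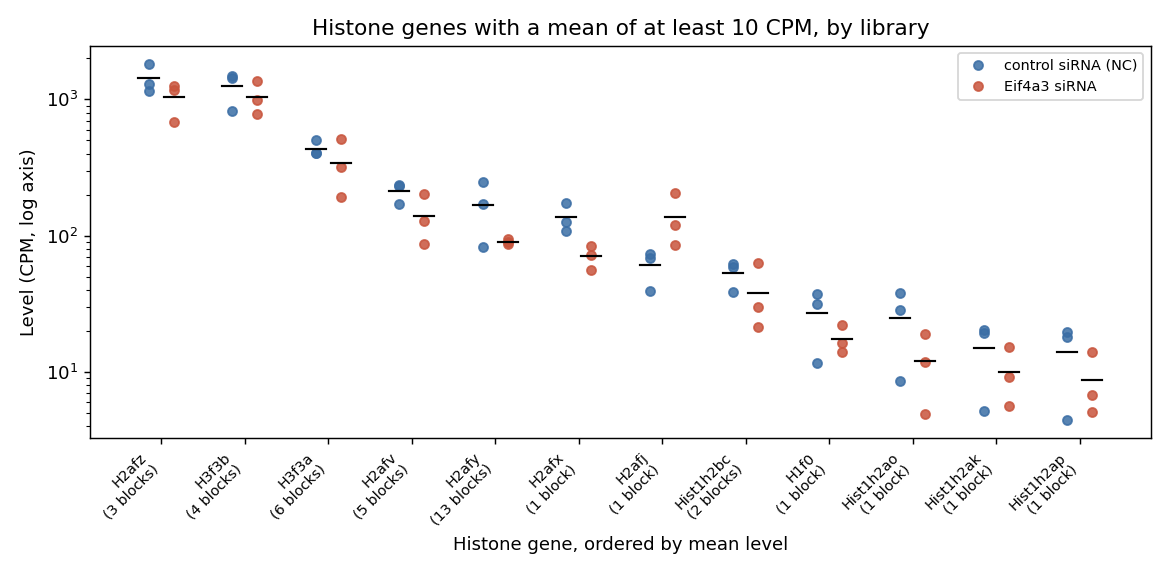
Level of the 12 histone genes with a mean of at least 10 CPM in each library, on a log axis, with blue points for NC, red points for the Eif4a3 siRNA and black lines for group means. Red lies above blue for H2afj in every library and below blue for H2afx, and the groups overlap for the other 10 genes.

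Of these 12 genes, 11 had a log2 fold change below 0, and H2afj alone had one above it. None was called by edgeR, against 14.6% of all tested genes with a mean of at least 10 CPM, 2 had groups apart, against 38.4%, and the median was −0.59. Of the 12, 3 had an unadjusted p under 0.05 (H2afx, H2afj and H2afy), against 32.7% of the genes at that level, and DESeq2 called 2 of them (H2afx and H2afj), against 23.6%.

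H2afx and H2afj are both intronless genes for H2A variants, and their values went opposite ways. H2afx encodes the variant that is phosphorylated around DNA breaks. It was measured at 172.3, 109 and 126.5 CPM in NC and at 84.58, 55.85 and 71.68 CPM in the knockdown, and every knockdown library lay below every NC library. The means were 135.9 ± 32.7 and 70.7 ± 14.4 CPM, 1.92-fold lower in the knockdown (−0.94, standard error 0.30, 95% interval −1.60 to −0.28), and the adjusted p of 0.0628 missed the threshold. H2afj encodes H2A.J, a variant known to build up in senescent cells. It had 39.54, 73.24 and 68.64 CPM in NC and 85.05, 120.5 and 205.2 CPM in the knockdown, so that the groups did not overlap in the other direction. The means were 60.5 ± 18.3 and 136.9 ± 61.7 CPM, a ratio of 2.26 (1.18, standard error 0.38, 95% interval 0.33 to 2.03), and the adjusted p was 0.0684.

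Both genes sat near the threshold and crossed it with some settings. DESeq2 gave 0.0275 for H2afx and 0.0273 for H2afj, and without knockdown replicate 1 edgeR gave 0.0452 and 0.0313. Over 13 alternatives the adjusted p ran from 0.0275 to 0.198 for H2afx, which passed in 3 of them, and from 0.0145 to 0.232 for H2afj, which passed in 6. The level of H2afj divided by that of H2afx was 0.230, 0.672 and 0.543 in NC and 1.01, 2.16 and 2.86 in the knockdown. Since the groups were already apart upward for H2afj and downward for H2afx, this ratio had to separate them and adds no support. Each gene overlaps an annotated antisense locus over 141 bases (Gm44335 for H2afx, 10.2% of its exon bases, and Gm44364 for H2afj, 7.70%). Gm44335 had 1385, 579 and 814 counts in NC and 655, 343 and 415 in the knockdown. Gm44364 had 724, 1031 and 963 counts in NC and 1756, 1801 and 3084 in the knockdown. Counting used a strand setting although Smart-seq2 does not mark strand, so reads of the overlapping loci cannot be told apart there.

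The division of the summed histone level between intronless and spliced genes also depended on whether H2afj was included. The 1-block genes held 9.71, 9.18 and 8.50% of the summed histone level in NC and 11.3, 9.82 and 11.8% in the knockdown, and the groups did not overlap. With H2afj left out, a step chosen after seeing the values, the shares were 7.72 ± 0.75% in NC and 6.88 ± 0.65% in the knockdown and the groups overlapped. The multi-block genes summed to 2835, 3622 and 4204 CPM in NC and 1857, 2855 and 3373 CPM in the knockdown, and the 1-block genes to 304.8, 366.2 and 390.4 CPM against 236.6, 311.0 and 452.6 CPM. The knockdown mean over the NC mean was 0.76 for the multi-block sum and 0.94 for the 1-block sum, so both entered the share. Pairs across a junction count more than once in the multi-block sum, so these are not shares of RNA molecules.

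H1f0, an intronless linker histone gene of cells that have left the cycle, was measured at 31.48, 37.52 and 11.68 CPM in NC and 13.96, 16.23 and 21.97 CPM in the knockdown. The groups overlapped (−0.63, 95% interval −1.59 to 0.33, adjusted p 0.360).

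The intronless genes with Hist names were mostly counted at far lower levels. They are the replication-dependent genes of the clusters with a few others, such as the pseudogene Hist1h2al and the variant genes Hist1h2aa and Hist1h2ba. In NC these 64 genes had a median of 0.950 CPM per kilobase of exon and a maximum of 51.8. H2afz stood at 804.9 (384.1 by its most counted block) and H2afx at 98.2. PolyA RNA was sequenced and pairs with several alignments were not counted, and the part of both in these low counts was not tested. By family the median per kilobase was 1.82 CPM for H2A, 1.41 for H2B, 0.837 for H3, 0.535 for H4 and 0.346 for H1. Summed without scaling for length, the 20 H2A genes came to 36.4, 105.8 and 131.6 CPM in NC and 32.0, 60.3 and 92.3 CPM in the knockdown. Over the same 6 libraries the corresponding sums were at most 10.7 CPM for H1, 13.5 for H2B, 16.2 for H3 and 22.6 for H4. Replicate 1 had the lowest sum of its group for H2A, H2B, H3 and H4, in NC as in the knockdown.

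**Figure D3:**
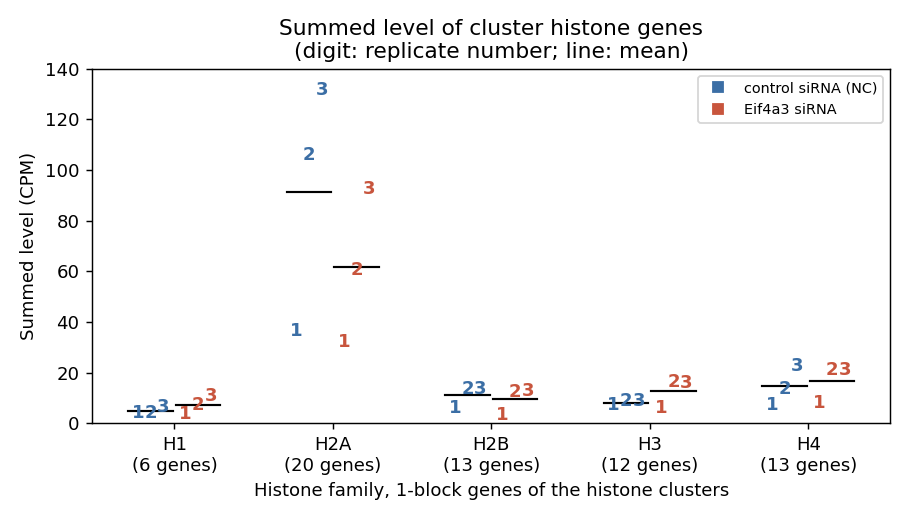
Summed level in CPM of the intronless Hist-named genes of each histone family, with each library drawn as its replicate number, blue for NC and red for the Eif4a3 siRNA, and a black line for the group mean. H2A lies above the other families, and its NC libraries range from 36.4 to 131.6 CPM.

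Most of the H2A sum came from 5 core H2A genes, Hist1h2ao, Hist1h2ak, Hist1h2ap, Hist1h2an and Hist1h2ag, which held 77.6 ± 6.98% of it in NC and 66.4 ± 5.84% in the knockdown. Hist1h2ao was measured at 8.505, 28.29 and 37.8 CPM in NC and 4.92, 11.87 and 19.02 CPM in the knockdown. The low NC replicate 1 made the groups overlap (−1.06, 95% interval −2.37 to 0.25, adjusted p 0.257). The other 4 had log2 fold changes of −0.57 (Hist1h2ak), −0.69 (Hist1h2ap), −0.74 (Hist1h2an) and −0.78 (Hist1h2ag), and none passed the threshold. Most of these copies share long stretches. Of the 100-base windows of Hist1h2ao, 92.7% occur unchanged in another gene's transcripts, and the shares are 92.2% for Hist1h2ap, 83.3% for Hist1h2an, 76.2% for Hist1h2ag and 10.5% for Hist1h2ak. Pairs that align to several places were not counted, so the split among such copies is uncertain.

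By family, the median log2 fold change over the tested intronless Hist-named genes was −0.25 for 14 H2A genes, −0.10 for 7 H2B genes, 0.40 for 8 H3 genes, 0.46 for 5 H4 genes and 1.003 for 3 H1 genes. The 14 H2A genes, 6 above 0 and 8 below, include the pseudogene Hist1h2aj (1.40) and the variant gene Hist1h2aa (3.11). Linker histone H1 binds the DNA between nucleosomes, and its gene Hist1h1b had 0.895, 1.59 and 2.17 CPM in NC and 1.73, 1.64 and 5.96 CPM in the knockdown (1.003, adjusted p 0.339). Without knockdown replicate 3 its log2 fold change was 0.12, and this gene is also the H1 median. The H4 gene with the highest level, Hist1h4d, had 3.08, 6.91 and 13.3 CPM in NC and 3.05, 8.24 and 10.1 CPM in the knockdown (−0.12, adjusted p 0.913). Hist1h3d, a core H3 gene, had 0.796, 0.996 and 1.18 CPM in NC and 1.17, 2.12 and 2.17 CPM in the knockdown (0.87, adjusted p 0.340), where the highest NC library just passed the lowest knockdown library. Over the 30 tested intronless genes with the stem-loop letters the median was −0.02 and edgeR called 0, against 9.97% of all 1-block genes. DESeq2 called 2 of them, H2afx and Hist2h3c2, against 13.6%, and the same number had an unadjusted p under 0.05, against 21.4%.

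Hist2h3c2, named here after its values were seen because its groups were apart, is a core H3 gene on chromosome 3. It had 4, 9 and 4 counts in NC and 14, 61 and 20 counts in the knockdown (2.38, standard error 0.84, 95% interval 0.52 to 4.24, adjusted p 0.0872). With these NC counts the gene entered the test through the group where it is high. Without knockdown replicate 2, which has the 61 counts, the log2 fold change was 1.39 (adjusted p 0.348). In 61.6% of its 100-base windows it is identical to another gene.

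Hist1h2aa, the gene that passed the threshold, encodes TH2A, an H2A variant of the testis and the oocyte. It was counted 1, 2 and 1 times in NC and 11, 17 and 12 times in the knockdown. In CPM these are 0.0497, 0.133 and 0.0656 against 0.516, 1.03 and 0.722, and the lowest knockdown library lay above the highest NC library. The log2 fold change was 3.11 (standard error 0.82, 95% interval 1.28 to 4.94, adjusted p 0.0346). The gene entered the test through its knockdown counts alone, its level stayed near or under 1 CPM, and of its 390 exon bases 129 overlap the antisense locus Gm44344, which had 0, 4 and 2 counts in NC and 2, 15 and 10 in the knockdown. The call was kept in 4 of 12 alternatives (adjusted p 0.0139 to 0.146). It was lost when any library other than knockdown replicate 1 was left out (0.0868 to 0.146), and DESeq2 gave 0.0516.

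Markers of the cells in which TH2A is known were read beside it. The 6 sperm markers summed to 1.04 to 2.43 CPM in NC and 0.969 to 3.31 CPM in the knockdown, and none had enough counts to be tested. Oocyte markers summed to 3.08 to 9.30 CPM and 2.95 to 11.02 CPM, and of 3 tested 1 was called, Oosp1, which was at 0 in all NC libraries and at 0.609, 1.57 and 0.722 CPM in the knockdown and so entered the test only through the group where it is high. H1foo, the linker histone of the oocyte, was left out by the name rule. It had 0.249, 1.13 and 0 CPM in NC and 3.05, 5.94 and 4.39 CPM in the knockdown (3.28, standard error 0.95, adjusted p 0.0472). With such low NC values, H1foo too entered the test through the group where it is high. The part of maternal or residual RNA in the Hist1h2aa value was not tested.

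Hist1h2aa lies head to head with Hist1h2ba, the gene of the partner variant TH2B, and the 250 bases before the 2 starts are largely the same DNA read from opposite strands. Hist1h2ba had 0, 1 and 1 counts in NC and 0, 2 and 7 in the knockdown and was not tested. The stretch before Hist1h2aa is shown because this is the called gene, and that before H2afj because its groups lay apart. Both are from RefSeq (GRCm38.p6, plus strand, Hist1h2aa at chr13:23934187-23934436 and H2afj at chr6:136807998-136808247). Capitals mark CCAAT on either strand, and likewise the TATAAA box and an octamer, ATTTGCAT.
Hist1h2aa: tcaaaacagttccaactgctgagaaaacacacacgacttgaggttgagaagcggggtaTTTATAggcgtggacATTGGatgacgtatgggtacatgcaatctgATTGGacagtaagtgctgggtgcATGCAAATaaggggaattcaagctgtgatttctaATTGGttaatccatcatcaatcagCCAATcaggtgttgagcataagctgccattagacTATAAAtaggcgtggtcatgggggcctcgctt
H2afj: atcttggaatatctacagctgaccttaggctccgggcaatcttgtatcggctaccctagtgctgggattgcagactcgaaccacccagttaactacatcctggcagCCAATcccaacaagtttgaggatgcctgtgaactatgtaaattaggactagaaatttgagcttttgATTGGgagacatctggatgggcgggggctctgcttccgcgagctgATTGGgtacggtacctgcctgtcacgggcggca

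The Hist1h2aa stretch holds all 3 motifs, and the H2afj stretch holds CCAAT without the other 2. A RefSeq promoter was matched for 74 of the 85 genes. CCAAT was found in 79.7% of 64 promoters of 1-block histone genes and 81.8% of 11 of multi-block ones, against 33.8% of all 32851 promoters. TATAAA was found in 43.8 and 18.2%, against 12.4%, and the octamer in 20.3 and 18.2%, against 1.60%. By family, CCAAT stood in 18 of 18 H2B promoters and 3 of 12 H4 promoters, and the octamer in 7 of 18 and 0 of 12. These are matches of letters and say nothing of binding in these embryos. They were counted on either strand, and neighbouring H2A and H2B genes such as Hist1h2ae and Hist1h2bg share much of the same stretch. Such promoters are not independent, and Hist1h2be adds 2 of the 18 H2B promoters.

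Exon blocks of the spliced genes were compared within each gene, to ask whether part of a transcript moved apart from the rest. In 6 genes 26 blocks could be tested with edgeR's diffSpliceDGE. None was called, against 0.175% of all 67890 blocks tested, and 0 had an unadjusted p under 0.05. The log2 change in usage ran from −0.90 (block 10 of H2afy) to 0.43 (its block 13). Blocks nearer the 3′ end had more counts in several genes, without scaling for length, and H2afz had 235.3 ± 49.8, 511.98 ± 115.1 and 682.2 ± 190.6 CPM in its 3 blocks in NC. The first 2 blocks of H3f3b had 0 CPM in all NC libraries.

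**Figure D4:**
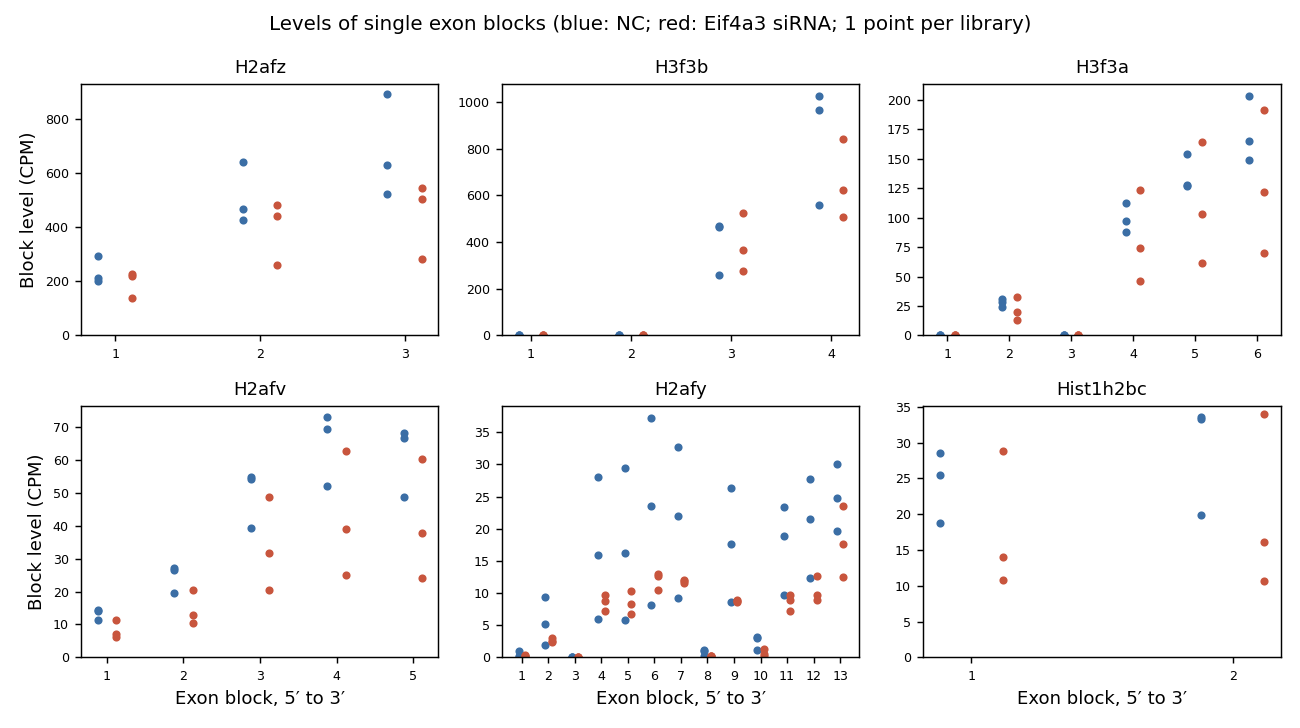
Level in CPM of each exon block, from 5′ to 3′, in the 6 histone genes whose blocks were tested, with blue points for NC, red points for the Eif4a3 siRNA and 1 point per library. Blocks near the 3′ end are higher in H2afz, H3f3b, H3f3a and H2afv, and no block departs from the rest of its gene past the threshold.

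Among cluster genes with several annotated blocks, Hist1h2bc stood out by its level. This H2B gene was measured at 38.6, 58.77 and 62.14 CPM in NC and 21.41, 62.81 and 30.15 CPM in the knockdown (−0.48, 95% interval −1.39 to 0.43, adjusted p 0.466). Its 2 blocks were counted about equally in NC, at 24.2 ± 5.03 and 28.9 ± 7.84 CPM. Hist1h2be, another H2B gene, had 0.0606 ± 0.0094 CPM in its upstream block and 1.99 ± 1.08 CPM in the other (both in NC), so that nearly all of its signal came from 1 block.

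The 35 histone genes that were not tested had 0 to 106 counts over the 6 libraries, and 32 of them have 1 block. H2afb1 and H2bfm had 0 counts in every library, which allows a level of up to 0.141 to 0.199 CPM per library (3 counts, counting error only).

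The machinery that makes and ends histone mRNA was read from lists of genes. Of 14 genes for histone transcription and 3′ processing edgeR called 0, against 13.1% of all genes, and the median log2 fold change was −0.42. An unadjusted p under 0.05 was found for 5 of the 14, against 30.1% of all genes. DESeq2 called 4 of the 14, against 21.3% of all genes. These were Slbp, Lsm10, Sympk and Ncbp1, all with values lower in the knockdown. Slbp, which binds the stem-loop, had 252.9, 271.3 and 300.9 CPM in NC and 180.4, 143.2 and 153.5 CPM in the knockdown, with groups apart (−0.79, standard error 0.26, adjusted p 0.0721). Lsm10, a subunit of the U7 particle that guides the cut, measured 30.1 ± 3.76 and 14.1 ± 6.05 CPM (−1.10, adjusted p 0.0788), and its partner Lsm11 11.9 ± 1.13 and 10.7 ± 1.95 CPM (−0.15, adjusted p 0.806). Sympk, a scaffold of the cleavage complex, had −1.44 (adjusted p 0.0559), and Npat, which activates histone transcription in S phase, had 0.11 (adjusted p 0.853). Of 10 genes for histone mRNA decay edgeR and DESeq2 called 0, against 13.1% and 21.3% of all genes, and the median was −0.29. An unadjusted p under 0.05 was found for 2 of the 10, against 30.1% of all genes. The helicase Upf1, which takes part in that decay, had −1.70 (adjusted p 0.103).

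Of 32 histone chaperone and deposition genes 4 fell and 1 rose by edgeR, near the 13.1% called among all genes, with a median of −0.47. DESeq2 called 8 of the 32, against 21.3% of all genes. Npm3, a nucleoplasmin family chaperone, fell from 64.8 ± 10.6 to 20.5 ± 6.29 CPM (−1.66, adjusted p 0.0106). Dnajc9, a chaperone of H3 and H4, rose from 28.2 ± 2.78 to 71.3 ± 21.1 CPM (1.34, adjusted p 0.0201). Ssrp1, a subunit of the FACT complex, Atrx, which deposits H3.3 with Daxx, and Chaf1b, a subunit of the CAF-1 complex, fell by 1.41, 1.12 and 1.39 on the log2 scale (adjusted p 0.0383, 0.0419 and 0.0491). Of 27 S phase genes 9 fell and 1 rose by edgeR, against 5.56% and 7.52% of all genes, with a median of −0.94. DESeq2 called 12 of the 27, against 21.3% of all genes. Mcm4, part of the helicase that opens DNA for replication, went down from 139.8 ± 10.02 to 44.5 ± 6.63 CPM (−1.65, adjusted p 0.00566), and Tyms, which makes thymidylate, rose from 359.8 ± 52.8 to 856 ± 285 CPM (1.25, adjusted p 0.0331). Whether the histone values move with these was not tested.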

How the data were processed

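The authors deposited raw counts of read pairs per annotated exon line, made with featureCounts 2.0.1 with GENCODE vM29 moved to GRCm38, per the file headers. Each pair counted in every line it overlapped, strand setting 2 was used, and pairs with several alignments were not counted. The submitters' processing notes also name FastQC 0.11.9, fastp 0.20.1, STAR 2.7.6a, R 4.1.1 and DESeq2 1.34.0. The planned tests assumed counts per gene. The 842173 lines hold 449500 distinct exons, and overlapping exons of a gene were joined into 291424 blocks. Each block took the value of its highest line and blocks were added up per gene, so a pair across a junction counts more than once and the sums are not numbers of pairs. Symbols were matched for 55102 of 55378 genes.

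All genes were fitted with edgeR 4.0.16 (filterByExpr, TMM, glmQLFit, glmQLFTest, two-sided) under R 4.3.3, with Benjamini-Hochberg adjustment over 15619 genes and a threshold of 0.05. Alternatives were DESeq2 1.42.0, other scaling, filters, block rules, a replicate block and leaving out each library. Plus-minus values are SD over 3 libraries. Named were each called histone gene, most of the 25 histone genes with the highest mean CPM, and selected genes of the lists. Histone members and lists were chosen with earlier results of these data known. Counts of 15619 genes were simulated with the same dispersion for every gene. On these, the gene test recovered 95 of 200 genes given a log2 change of 2, with 4 false calls. The recovery at the levels of the histone genes was not measured. A gene that was not called may therefore still differ.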

Additional observations from a re-analysis of the deposited data

How the results depend on the processing

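The count of intronless histone genes called higher was 1, and became 2 with DESeq2, 3 with the most counted block of each gene, 0 among genes that share no exon base with another gene, and 0 to 2 when a library was left out (2 without knockdown replicate 1, 0 without each other library). The count called lower was 0, and became 1 with DESeq2, with no filter on low counts and with the replicate block, and 0 to 1 when a library was left out. For spliced genes, no filter called 1 higher (H3f3aos), and the counts called lower and for block usage stayed at 0 in all alternatives run. Over all genes DESeq2 called 1829 higher and 1490 lower, the replicate block 1331 and 1196, and no filter 2089 and 1518 with a median log2 fold change of 0.17. Without any 1 library the median ran from −0.19 to 0.37 for the intronless histone genes and from −0.57 to −0.23 for the spliced ones. Correlations of same-numbered libraries were 0.27, 0.00 and 0.10. For NC replicates 1 and 3 the best match had the same number, and for NC replicate 2 it was knockdown replicate 3 (0.19). Whether the replicate numbers pair the samples cannot be told from these values. With the block, H2afx (adjusted p 0.0313) and H2afj (0.0270) passed and Hist1h2aa (0.0537) did not.

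Low-count genes changed sign, where the cause was not tested. Without 1 library, Hist1h4d ran from −0.54 to 0.50 (0.50 without NC replicate 3, 0.21 without knockdown replicate 1) and Hist3h2a from −0.063 (without NC replicate 1) to 0.34. Likewise Hist1h2ae ran from −0.74 to 0.11 (without NC replicate 3), Hist1h2bg from −0.35 to 0.17 (without knockdown replicate 1) and Hist1h1c from −0.68 (without knockdown replicate 2) to 0.39. Hist1h1c also had −0.00081 with no filter and −0.20 with the replicate block. Of the other results for named genes 301 kept their direction and side of the threshold, 9 newly passed it and 8 no longer did. Copies with shared sequence and antisense overlap limit what single genes can show, and so do counts of a few pairs.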
